A study of Mus musculus with 4 samples.

Results

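Genes of cartilage, bone and calcifying arteries were followed across single-cell libraries of mouse aorta: Col2a1, Acan, Sox9, Comp, Ibsp, Cytl1, Chad, Runx2, Alpl and Mgp. They were taken by symbol from a list of 10 names, and all 10 were found among the 32285 genes of the deposited matrices. In the plaque-bearing wall, smooth muscle cells can lose their contractile genes and pass into fibroblast-like and chondrocyte-like states, and the matrix such cells lay down can mineralise. Sox9 encodes the transcription factor that switches on cartilage matrix genes, among them Col2a1 (type II collagen) and Acan (the proteoglycan aggrecan). Comp and Chad encode proteins that bind cartilage collagen, and Cytl1 a small secreted protein of cartilage and vessels. Runx2 encodes the transcription factor of bone-forming cells, Ibsp the bone sialoprotein of mineralising matrix, Alpl the phosphatase that removes the mineral inhibitor pyrophosphate, and Mgp a secreted inhibitor of arterial calcification.

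There were 4 libraries of dissociated aorta made with 10x Genomics chemistry, 1 per group. Those of normal diet came from a WT and a LysM-DKO group, and those of western diet from a WT/ApoE-/- and a LysM-DKO/ApoE-/- group. Values are given in that order throughout. ApoE-/- mice lack apolipoprotein E and develop plaques on a fat-rich western diet. LysM names the lysozyme promoter of myeloid cells, and the series title concerns epsins, the endocytic adaptors encoded by Epn1 and Epn2. The labels do not spell out the alleles behind LysM-DKO, and the number, age and sex of the animals per library are not given in the sources used here. The 2 western diet libraries shared the ApoE-/- genotype, so diet and ApoE cannot be told apart.

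Barcodes with at least 1000 unique molecular identifiers (UMIs, each counting 1 captured transcript) and at most 10% mitochondrial UMIs were kept. This left 7758, 8230, 13744 and 8133 barcodes, with a median of 4167, 3404, 2103 and 6761 UMIs. Each was put into the first class whose rule it met: macrophage (at least 5 UMIs of C1qa, C1qb and C1qc), Pecam1/Cdh5 (at least 2), smooth muscle (at least 3 of Myh11 and Cnn1), fibroblast (at least 3 of Pdgfra and Serpinf1), modulated (at least 2 of Lum) or other. Levels are CPM, the UMIs of a gene summed over a class in a library and scaled to 1e6 UMIs of that class. With 1 library per group there is no replicate and no test: brackets hold exact 95% intervals that cover counting error only.

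Several properties of whole libraries moved with the groups. Xist stood near 950.3 CPM in both normal diet libraries and at 0.636 and 0.563 CPM in the western diet ones, where Ddx3y was at 117 and 124 CPM after 0 in the former, so sex cannot be told apart from diet. The file headers name different Cell Ranger versions for the diets. In the macrophage class Epn1 was at 81.7, 54.5, 52.4 and 42.7 CPM and Epn2 at 35.6, 33.6, 33.2 and 15.7 CPM. Whether the counted 3' ends lie outside any deleted part is not known, so the Epn1 and Epn2 values do not check the LysM-DKO label. Lyz2, a lysozyme gene, was at 3696, 977, 4126 and 798 CPM in the macrophage class, lower in LysM-DKO on both diets. The cause of that difference was not tested. Apoe in that class was at 7012 and 5435 CPM on normal diet and at 8.44 and 8.55 CPM in the ApoE-/- libraries. Between 9 and 41 kept barcode sequences were shared by any pair of libraries, at most 0.528% of the smaller one.

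The classes are named by their rules, and RNA of other cell types was read in each. Barcodes of the Pecam1/Cdh5 class held Pecam1 at 577, 710, 440 and 668 CPM against 17.3 to 33.8 CPM in the smooth muscle class. They also held Acta2, the smooth muscle actin, at 13145, 9539, 8240 and 11211 CPM. The data therefore go against an endothelial name for that class, and it is called by its genes. In the macrophage class the 6 macrophage markers summed to 6540, 7625, 10285 and 11606 CPM, beside 5567, 5881, 10568 and 6386 CPM for 10 contractile genes. In the fibroblast class the 6 fibroblast markers summed to 4805, 4889, 2756 and 3746 CPM, beside 17534, 15481, 43161 and 20939 CPM for 10 genes listed for modulated cells. The part of mixed barcodes in these values was not tested. The modulated class made up 1.28%, 1.90%, 9.63% and 1.39% of kept barcodes, or 99, 156, 1324 and 113 barcodes. The rules are fixed UMI counts taken in order, and the libraries had median depths of 4167, 3404, 2103 and 6761 UMIs. Class sizes and levels by class can therefore depend on depth, and the part of depth in these shares was not tested. Fewer barcodes of a class and less RNA per barcode cannot be told apart in sums over a whole library.

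The member genes lie on different chromosomes of GRCm38 for the most part (GENCODE M21 annotation, all protein-coding): Col2a1 at chr15:97975602-98004695 on the minus strand, Acan at chr7:79053483-79115099 on the plus strand, and Sox9 at chr11:112782224-112787760 on the plus strand. Comp lies at chr8:70373558-70382066, Ibsp at chr5:104299171-104311469 and Cytl1 at chr5:37735519-37739820, all on the plus strand. Chad at chr11:94565047-94569127 lies within Acsf2, which runs on the opposite strand, and Runx2 at chr17:44495987-44814797 overlaps Supt3 and antisense transcripts. The use of strand in counting is not given in the sources used here, so UMIs of Chad and Runx2 carry that uncertainty. Alpl lies at chr4:137741733-137796384 and Mgp at chr6:136872435-136875823, both on the minus strand.

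Sequence upstream of the start site is shown for Acan, Ibsp and Chad, the members that were far apart between libraries and matched a RefSeq promoter window (GRCm38.p6; 6 of the 10 members matched). Capitals mark a SOX core (ACAATG) or a RUNX core (TGNGGT), searched on both strands in the 250 bases before the RefSeq start. The Acan stretch is chr7:79052976-79053225, the Chad stretch chr11:94564797-94565046, and the Ibsp stretch chr5:104299037-104299170, which stops where GENCODE starts the gene. All are written along the plus strand.
Acan: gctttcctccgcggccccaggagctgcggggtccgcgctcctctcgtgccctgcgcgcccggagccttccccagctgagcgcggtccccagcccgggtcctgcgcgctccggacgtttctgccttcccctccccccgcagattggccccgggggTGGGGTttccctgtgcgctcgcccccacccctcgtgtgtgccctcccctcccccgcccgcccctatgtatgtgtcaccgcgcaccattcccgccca
Ibsp: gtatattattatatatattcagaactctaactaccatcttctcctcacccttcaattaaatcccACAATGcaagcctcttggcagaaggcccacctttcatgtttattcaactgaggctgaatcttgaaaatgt
Chad: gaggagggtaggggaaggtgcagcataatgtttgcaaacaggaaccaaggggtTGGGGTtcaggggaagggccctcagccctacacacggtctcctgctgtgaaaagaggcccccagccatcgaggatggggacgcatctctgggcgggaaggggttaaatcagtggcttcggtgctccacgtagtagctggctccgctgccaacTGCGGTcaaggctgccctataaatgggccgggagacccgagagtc
The Acan window holds a RUNX core 96 bases before the start, the Chad window holds RUNX cores at 197 and 45 bases, and the Ibsp window holds a SOX core at 186 bases. Runx2 has a RUNX core at 91 bases and, on the other strand, at 80. Of 2 Alpl windows 1 holds a RUNX core at 16 bases on the other strand, and the Cytl1 window holds neither. These letters are common: of 32536 RefSeq windows of the same length, 40.2% hold the RUNX core and 10.5% the SOX core. A match is a description of the sequence and not a binding site.

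The cartilage collagen gene was close to silent on normal diet. Col2a1 had 38 and 59 UMIs in the whole normal diet libraries, at 0.933 CPM [0.660 to 1.28] and 1.56 CPM [1.19 to 2.01]. It had 46454 UMIs, or 870 CPM [862 to 878], in the WT/ApoE-/- library and 14983 UMIs, or 263 CPM [259 to 268], in the LysM-DKO/ApoE-/- library. Both western diet libraries were thus far above both normal diet ones, and the LysM-DKO/ApoE-/- library was below the WT/ApoE-/- library. In the modulated class Col2a1 was at 17.4, 56.9, 4633 and 8246 CPM, so that the order of the western diet libraries was the reverse of that in the whole library. That order rests on few barcodes: 4868 of the 4873 UMIs in LysM-DKO/ApoE-/- lay in 13 of 113. Without barcodes that held at least 10 Col2a1 UMIs, the levels were 17.4, 2.23, 175 and 12.6 CPM. In the smooth muscle class Col2a1 was at 0.665, 0.888, 416 and 156 CPM, and in the fibroblast class at 2.05, 2.44, 4545 and 925 CPM. Without barcodes of at least 10 Col2a1 UMIs, the western diet levels were 68.5 and 6.68 CPM in the smooth muscle class. In the fibroblast class they were then 32.3 and 15.0 CPM.

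Acan, the aggrecan core protein gene, was present at low level in every library, at 15.8, 12.9, 117 and 46.7 CPM. On normal diet its UMIs lay mostly in the smooth muscle class, at 17.8 and 14.4 CPM. By level the Pecam1/Cdh5 class was as high, at 20.2 and 15.8 CPM, with intervals that overlapped. The modulated class had 2 and 6 UMIs, at 6.97 and 13.1 CPM, and 4 of the 6 lay in 1 barcode. On western diet the modulated class held 537 CPM [515 to 560] and 1426.5 CPM [1332 to 1526], and the smooth muscle class 72.5 and 29.6 CPM. The fibroblast class went from 0 and 1.22 CPM on normal diet to 432 and 74.0 CPM.

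Sox9 was the cartilage gene with the least spread between libraries, at 37.0, 33.2, 85.0 and 36.3 CPM over all kept barcodes. Unlike Col2a1, it was already present on normal diet, with 1506 and 1254 UMIs. Its levels in the fibroblast class were 171, 125, 220 and 118 CPM, and in the modulated class 195, 114, 388 and 587 CPM. In the smooth muscle class it was at 32.4, 32.6, 52.6 and 24.7 CPM. The fibroblast and modulated classes were above the smooth muscle class in all 4 libraries.

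Comp, a pentameric protein that assembles collagen fibrils, stood at 16.6, 39.0, 137 and 96.2 CPM. In the modulated class it was at 38.3, 145, 652 and 2164 CPM [2047 to 2286], the LysM-DKO library being higher on both diets. Chad, the leucine-rich matrix protein chondroadherin, had 6 UMIs in the WT normal diet library and 165 in the LysM-DKO normal diet library, at 0.147 and 4.37 CPM, against 61.2 and 10.7 CPM on western diet. In the modulated class Chad was at 10.5, 134, 463 and 369 CPM. Of its 165 UMIs in the LysM-DKO normal diet library, 102 came from 2 barcodes.

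Cytl1 was abundant in several classes. Over all kept barcodes it was at 137, 186, 461 and 213 CPM. The modulated class held 537, 1362, 2901 and 2472 CPM, the fibroblast class 435, 400, 839 and 1405 CPM, and the Pecam1/Cdh5 class 660, 629, 479 and 1122 CPM. In the WT normal diet library the Pecam1/Cdh5 class was thus the highest for Cytl1, and in the other 3 libraries the modulated class was. In the LysM-DKO normal diet library 1 barcode held 344 of the 622 Cytl1 UMIs of the modulated class, and without the barcodes of at least 10 Col2a1 UMIs the class was at 619 CPM there.

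Of the bone genes, Ibsp showed a range close to that of Col2a1. It had 41 and 50 UMIs on normal diet, at 1.01 and 1.32 CPM, and 37280 and 3298 UMIs on western diet, at 698 CPM [691 to 705] and 58.0 CPM [56.0 to 60.0]. In the modulated class no Ibsp UMI was counted on normal diet, which allows up to 10.5 and 6.57 CPM by the limit of 3 counts, and the western diet libraries held 4337 and 3149 CPM. The fibroblast class set the western diet libraries furthest apart, with 5379 UMIs (2364 CPM) in WT/ApoE-/- and 7 UMIs (3.57 CPM [1.44 to 7.36]) in LysM-DKO/ApoE-/-.

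Runx2 was sparse. It was at 6.97, 13.05, 11.4 and 4.62 CPM over all kept barcodes, so that the LysM-DKO library was higher on normal diet and lower on western diet. In the modulated class it had 2, 8, 121 and 18 UMIs, at 6.97, 17.5, 29.5 and 30.5 CPM, and in the fibroblast class it was at 10.3, 4.26, 31.6 and 29.1 CPM. The fibroblast and modulated intervals overlapped in every library. The other class, which takes in lymphocytes, was at 18.1, 19.1, 18.8 and 20.5 CPM.

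Alpl, which frees phosphate for mineral growth, was at 5.33, 7.38, 26.4 and 6.15 CPM. Its modulated-class level was 0, 6.57, 124 and 102 CPM, where 0 UMIs allows up to 10.5 CPM. In LysM-DKO/ApoE-/- 57 Alpl UMIs of this class lay in the 13 barcodes with at least 10 Col2a1 UMIs. Without such barcodes the western diet levels of the class were 27.4 and 7.59 CPM. In the smooth muscle class Alpl was at 4.23, 5.37, 17.6 and 4.55 CPM, so that the WT/ApoE-/- library stood apart from the other 3. Mgp, the calcification inhibitor, was high everywhere, at 6160, 8147, 15186 and 9048 CPM. It was at 12574, 18485, 26776 and 14255 CPM in the modulated class, at 6125, 8259, 14527 and 8353 CPM in the smooth muscle class, and at 13274, 12197, 23109 and 15743 CPM in the fibroblast class.

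The modulated class was the highest of the 6 classes for 3, 4, 9 and 9 of the 10 genes. The share of all genes that were highest in this class was not computed, so these counts are not read as particular to the 10 genes. The exceptions on western diet were Runx2 in WT/ApoE-/- and Mgp in LysM-DKO/ApoE-/-, both highest in the fibroblast class. For Col2a1 in the WT/ApoE-/- library the modulated and fibroblast classes, at 4633 and 4545 CPM, did not differ beyond their counting intervals. The modulated class holds barcodes with at least 2 Lum UMIs that met no earlier rule, so it leaves out Lum-positive barcodes of the other classes. None of the 10 genes was used to build it.

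Col2a1 was also read in macrophage barcodes. Macrophages are not known to make type II collagen, yet 15.7% of macrophage barcodes in the WT/ApoE-/- library and 5.19% in LysM-DKO/ApoE-/- held at least 1 Col2a1 UMI, at median depths of 2796 and 4025 UMIs. The shares in the smooth muscle class, 17.5% and 4.16% at median depths of 2266 and 6956.5 UMIs, were close to that level, so a single Col2a1 UMI in a barcode is not read here as expression. The part of free RNA and of mixed barcodes was not tested. By level the classes were further apart: the macrophage class held 77.7 and 15.7 CPM of Col2a1 and 114 and 4.27 CPM of Ibsp. Mgp was seen in 86.7% to 100% of macrophage barcodes.

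The first comparison was LysM-DKO over WT within a diet. Over all kept barcodes on normal diet, Comp and Chad were past 2-fold higher, with log2 ratios of 1.23 [1.10 to 1.37] and 4.78 [3.74 to 6.36], and none was past 2-fold lower. A ratio counts as past 2-fold where the 2 libraries hold at least 20 UMIs together. Of all 17338 genes with that many UMIs, 6.13% were past 2-fold higher and 1.07% lower. Runx2 followed with 0.90 [0.69 to 1.12] and Col2a1 with 0.74 [0.13 to 1.37], while the Ibsp interval spanned 0 (0.39 [-0.23 to 1.03]). In the smooth muscle class alone Comp (1.56), Cytl1 (1.13), Chad (5.90, from 77 against 1 UMI) and Runx2 (1.15) were past 2-fold higher, where 6.99% of genes were. Without the 2 barcodes of the LysM-DKO normal diet library that held at least 10 Col2a1 UMIs, the Chad ratio was 3.40, the Comp ratio 1.14 and the Col2a1 ratio -0.87.

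On western diet the direction over whole libraries was the opposite for most of the genes. Acan and Sox9 were lower in LysM-DKO on normal diet as well. LysM-DKO/ApoE-/- was past 2-fold lower than WT/ApoE-/- for 8 of the 10 genes, where 11.6% of the 16765 genes measured were, and higher for none, where 2.36% were. The log2 ratios were -3.59 [-3.64 to -3.54] for Ibsp, -2.51 [-2.64 to -2.39] for Chad, -2.10 [-2.27 to -1.93] for Alpl and -1.72 [-1.75 to -1.70] for Col2a1. They were -1.33 for Acan, -1.30 for Runx2, -1.23 for Sox9 and -1.11 for Cytl1, and the remaining Mgp (-0.75) and Comp (-0.52) were lower by less than 2-fold. The median of the 10 was -1.31, beside -0.02 over all genes.

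The ratio depended on the class. In the smooth muscle class of the western diet libraries 8 of the 10 were past 2-fold lower, from -1.09 for Sox9 to -3.49 for Ibsp, where 9.53% of genes were. In the fibroblast class 4 were, where 4.17% of genes were: Ibsp (-9.27 [-10.69 to -8.33]), Acan (-2.54), Col2a1 (-2.30) and Alpl (-1.86). In WT/ApoE-/- 16 of the 413 barcodes of this class held at least 10 Col2a1 UMIs. Without such barcodes Alpl was at 12.4 and 14.4 CPM in WT/ApoE-/- and LysM-DKO/ApoE-/-, with intervals that overlapped. Col2a1 was then at 32.3 and 15.0 CPM, Acan at 42.2 and 2.88 CPM and Ibsp at 435 and 1.15 CPM. In the modulated class none was past 2-fold lower, where 8.01% of genes were. There Comp (1.73 [1.63 to 1.83]) and Acan (1.41 [1.29 to 1.52]) were past 2-fold higher, where 5.75% of genes were, and Col2a1 (0.83) and Sox9 (0.60) were also higher in LysM-DKO/ApoE-/-. Ibsp (-0.46) and Mgp (-0.91) were lower in the modulated class too. The modulated class held 1324 barcodes in the WT/ApoE-/- library and 113 in LysM-DKO/ApoE-/-. Its Col2a1 UMIs in the latter came mostly from few barcodes, as described below. Without barcodes of at least 10 Col2a1 UMIs, the class held Col2a1 at 175 and 12.6 CPM in WT/ApoE-/- and LysM-DKO/ApoE-/-. In the same order Chad was then at 56.6 [48.6 to 65.5] and 2.53 [0.064 to 14.1] CPM. Alpl was at 27.4 [21.9 to 33.7] and 7.59 [1.56 to 22.2] CPM, with intervals that overlapped, and Sox9 at 180 and 192 CPM. These LysM-DKO/ApoE-/- values rest on 100 barcodes. Comp, at 214 and 1065 CPM, and Acan, at 169 and 311 CPM, were still higher in LysM-DKO/ApoE-/-. The absence of lower calls in this class thus depended on the barcodes with at least 10 Col2a1 UMIs. The cut is made on Col2a1 itself, so its levels without them are no separate result.

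The second comparison was ApoE-/- on western diet over normal diet within a genotype, in which diet, ApoE, sex and software version move together. In the WT pair 9 of the 10 genes were past 2-fold higher, where 6.18% of 17164 genes were, and none was lower, where 11.8% were. Runx2 was the gene that was not (0.71 [0.51 to 0.92]). The log2 ratios were 9.85 [9.41 to 10.36] for Col2a1, 9.42 [9.0 to 9.92] for Ibsp and 8.58 [7.58 to 10.15] for Chad. Those of the more abundant genes were smaller: 3.05 for Comp, 2.89 for Acan, 2.31 for Alpl, 1.75 for Cytl1, 1.30 for Mgp and 1.20 for Sox9. The median was 2.60, beside -0.04 over all genes.

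In the LysM-DKO pair 5 of the 10 were past 2-fold higher, where 3.94% of 17214 genes were: Col2a1 (7.39 [7.03 to 7.79]), Ibsp (5.44 [5.05 to 5.89]), Acan (1.86), Comp (1.30) and Chad (1.29 [1.04 to 1.55]). Runx2 was past 2-fold lower (-1.495 [-1.72 to -1.28]), where 22.4% of genes were. Cytl1 (0.19), Mgp (0.15), Sox9 (0.13) and Alpl (-0.26) were nearer to 0. The 4 comparisons share libraries in pairs, so their values are set side by side and not counted as separate evidence.

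**Figure D1:**
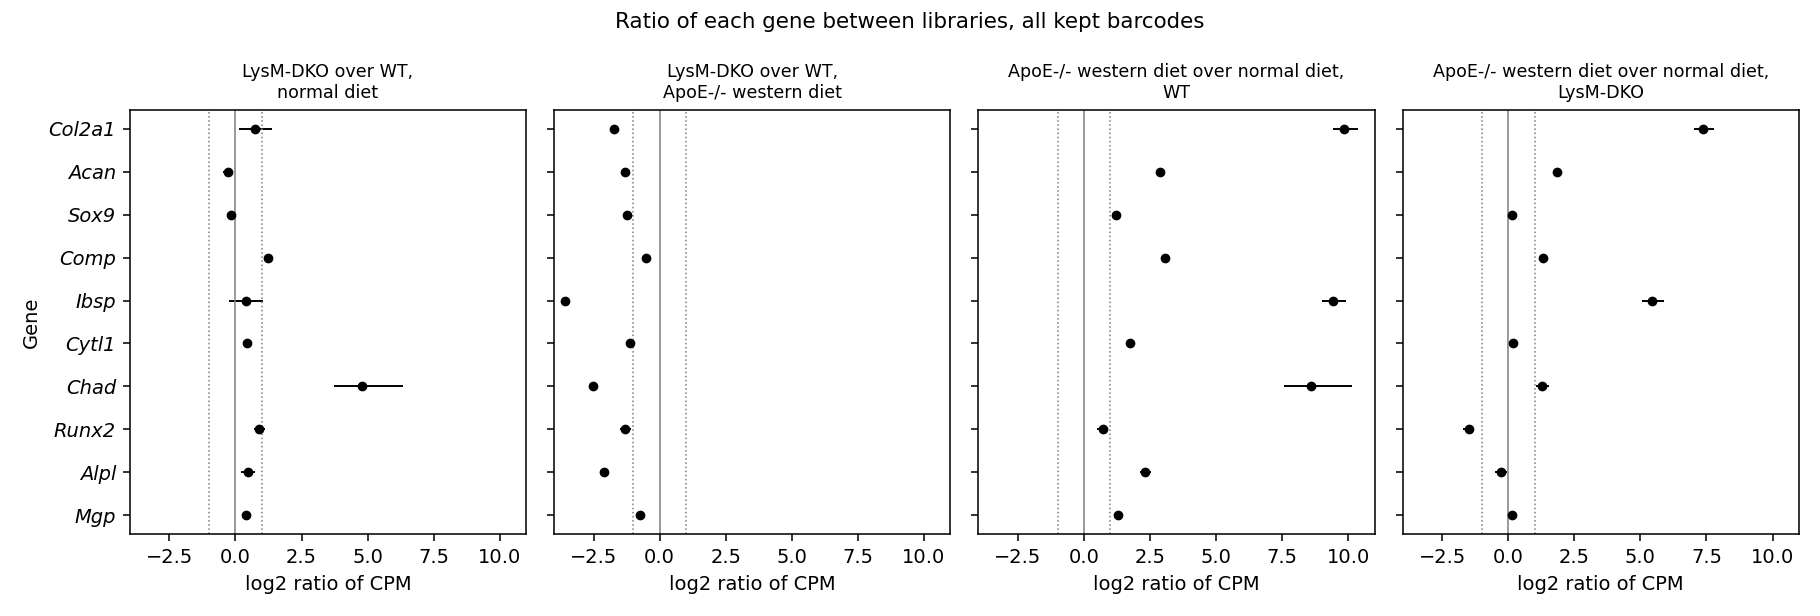
Log2 ratios of CPM over all kept barcodes for the 10 genes in the 4 comparisons, with bars for 95% counting intervals and dotted lines at 2-fold, 1 library per group. On western diet all 10 points of LysM-DKO over WT lie below 0, from -3.59 for Ibsp to -0.52 for Comp, and on normal diet Chad lies at 4.78.

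Sox9, Col2a1 and Acan were then followed in the same barcodes. At least 2 of the 3 were seen in 104 barcodes (1.34%), 49 barcodes (0.595%), 1071 barcodes (7.79% [7.35 to 8.25]) and 206 barcodes (2.53% [2.20 to 2.90]). All 3 were seen in 1, 1, 377 and 42 barcodes, which is 2.74% of the WT/ApoE-/- library and 0.516% of the LysM-DKO/ApoE-/- library. The median depth of the libraries differed, so each barcode was also thinned to 1000 UMIs. Then 4, 2, 525 and 42 barcodes held at least 2 of the 3, or 0.0516%, 0.0243%, 3.82% and 0.516%, and the WT/ApoE-/- library stayed the highest.

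The make-up of these barcodes differed with diet. On normal diet the usual pair was Sox9 with Acan, in 90 and 43 barcodes, while Sox9 with Col2a1 was seen in 10 and 2 and Col2a1 with Acan in 3 and 3. Normal diet barcodes with at least 2 of the 3 were deep, at medians of 11460.5 and 9234 UMIs against 4167 and 3404 for the libraries. After thinning, Sox9 with Acan was left in 2 and 1 barcodes. Sox9 was then seen in 2.27% and 1.33% of barcodes with Acan, against 3.05% and 2.49% of those without. In the WT/ApoE-/- library 261 barcodes held Sox9 with Col2a1, 183 Sox9 with Acan, 250 Col2a1 with Acan and 377 all 3, beside 1549 with Col2a1 alone. In LysM-DKO/ApoE-/- the numbers were 56, 82, 26 and 42, beside 244 with Col2a1 alone. After thinning they were 136, 56, 198 and 135 in WT/ApoE-/- and 9, 4, 13 and 16 in LysM-DKO/ApoE-/-. In the WT/ApoE-/- library Acan was seen in 25.7% of barcodes with Col2a1 and 7.33% of those without, and Sox9 in 26.2% and 9.21%.

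By class, the modulated class had the highest share with at least 2 of the 3 on western diet, at 19.0% (251 of 1324 barcodes) and 19.5% (22 of 113). The intervals of these shares, 16.9% to 21.2% and 12.6% to 27.98%, overlapped, as they did after thinning (12.4% and 13.3%). The smooth muscle class held 7.09% and 2.005% and the fibroblast class 11.4% and 4.202%. The Pecam1/Cdh5 class held 8.92% and 5.28%. Macrophage barcodes held 4.58% and 1.48%, and those of the other class 2.78% and 1.90%.

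**Figure D2:**
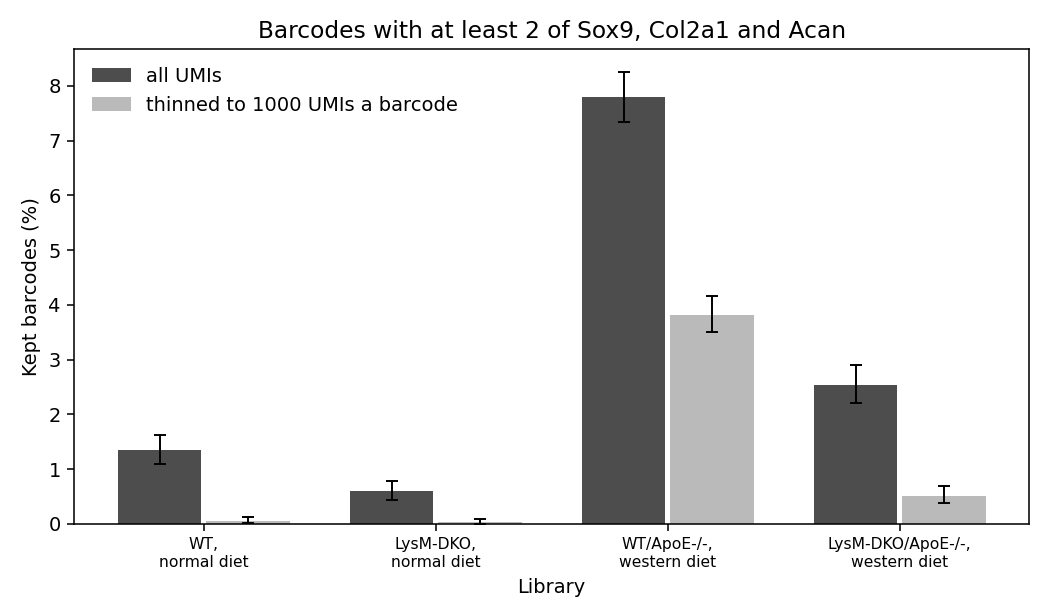
Bars show the share of kept barcodes in each library with at least 2 of Sox9, Col2a1 and Acan, from all UMIs and after thinning to 1000 UMIs, with exact 95% binomial intervals. The WT/ApoE-/- western diet library is highest either way, at 7.79% and 3.82%.

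Detection of Sox9 and Acan went up in steps with the number of Col2a1 UMIs in a barcode. In the WT/ApoE-/- library Sox9 was seen in 9.21% of the 11307 barcodes without Col2a1, in 11.9% of the 1534 with 1 UMI, in 30.9% of the 414 with 2 to 4, in 69.9% of the 269 with 10 to 99, and in 98.5% of the 66 with at least 100. Acan went from 7.33% to 98.5% over the same bins. In LysM-DKO/ApoE-/- Sox9 went from 8.96% of 7765 barcodes without Col2a1 to 95.7% of the 23 with at least 100, and Acan from 6.25% to 100%. In WT/ApoE-/- the median depth of the bins was 2080, 2107.5, 2007.5, 1881.5, 2918 and 14240.5 UMIs. Sox9 and Acan were seen in 48.7% and 47.4% of its 154 barcodes with 5 to 9 Col2a1 UMIs. In LysM-DKO/ApoE-/- the median depth went from 6735 to 18688 UMIs over the bins, and the part of depth in the result was not tested in either library.

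**Figure D3:**
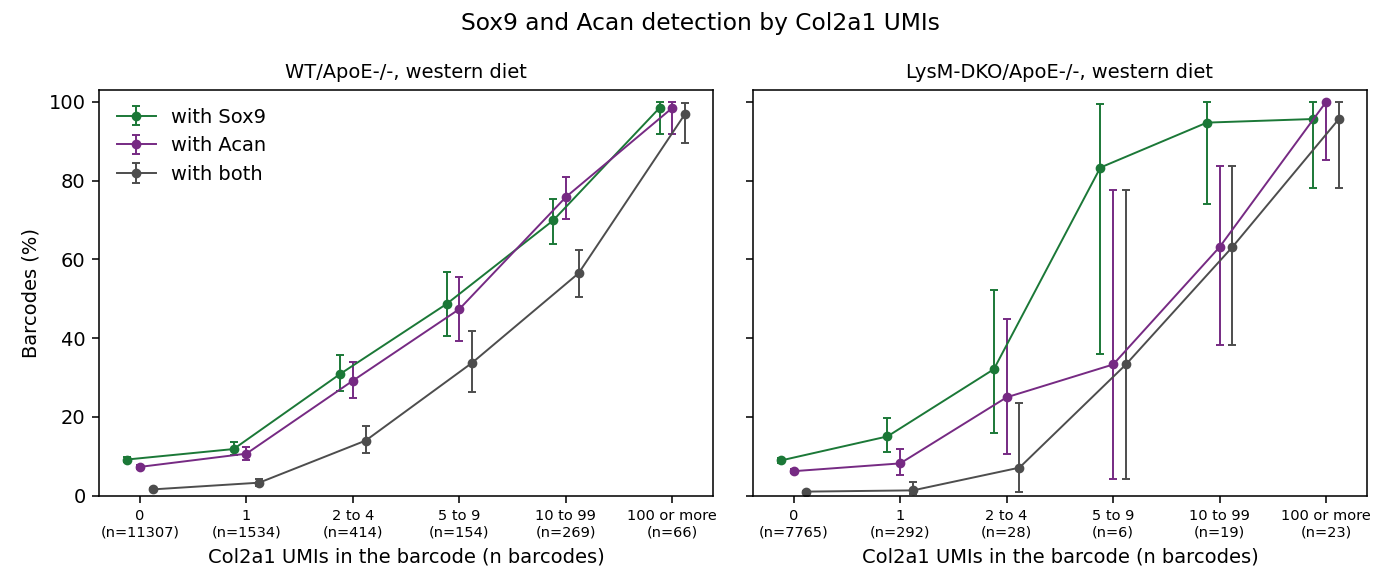
Share of barcodes with Sox9, with Acan and with both, by the number of Col2a1 UMIs in the barcode, in the 2 western diet libraries, with exact 95% binomial intervals and the number of barcodes under each bin. Both climb from under 10% without Col2a1 to at least 95.7% at 100 or more Col2a1 UMIs; the middle bins of LysM-DKO/ApoE-/- hold 6 to 28 barcodes.

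Most Col2a1 came from few barcodes. Those with at least 100 Col2a1 UMIs, 66 in WT/ApoE-/- and 23 in LysM-DKO/ApoE-/-, held 75.9% and 92.3% of its UMIs, and the highest single barcodes held 4432 and 4101. The 50% of UMIs in the highest barcodes came from 18 and 5 barcodes for Col2a1, from 28 and 5 for Ibsp, from 20 and 3 for Chad and from 48 and 25 for Cytl1. For Mgp the same share needed 827 and 875 barcodes, and for Runx2 169 and 81.

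Barcodes with at least 10 Col2a1 UMIs, a limit chosen after the data were seen, are called Col2a1-rich. There were 0, 2, 335 and 42, or 2.44% and 0.516% of the western diet libraries. After thinning, 170 (1.24%) and 22 (0.271%) western diet barcodes still reached 10 UMIs and none on normal diet did. In WT/ApoE-/- 187 fell into the smooth muscle class, 112 into the modulated class, 16 into the fibroblast class, 13 into other, 5 into macrophage and 2 into Pecam1/Cdh5. In LysM-DKO/ApoE-/- 15 were in smooth muscle, 13 in modulated, 11 in fibroblast and 3 in Pecam1/Cdh5. As a share of the class this was 8.46% and 11.5% of modulated, 3.87% and 2.31% of fibroblast, and 2.03% and 0.219% of smooth muscle barcodes. Their median depth was 4547 and 16612.5 UMIs, above that of their libraries, and a doublet caller marked 2 of the 335 and 0 of the 42.

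Of the other 9 genes, all but Mgp were past 2-fold higher in Col2a1-rich barcodes than in the rest of the same library, in both western diet libraries, where 7.67% and 13.7% of genes were. The barcodes were picked by Col2a1, and no test was made between cells. Acan was at 1659 against 44.3 CPM in WT/ApoE-/- and at 2107 against 19.4 CPM in LysM-DKO/ApoE-/-. Ibsp was at 10612 against 230 CPM and at 2991 against 19.1 CPM, and was seen in 91.3% and 52.4% of Col2a1-rich barcodes. Alpl was at 347 against 11.3 CPM and at 87.4 against 5.08 CPM. Runx2 was at 39.9 against 10.1 CPM and at 49.7 against 4.03 CPM. Mgp was lower in Col2a1-rich barcodes of WT/ApoE-/- (9958 against 15433 CPM) and higher in those of LysM-DKO/ApoE-/- (14858 against 8971 CPM).

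The Col2a1-rich barcodes carried less of the contractile programme. All 10 contractile genes listed (Myh11, Acta2, Cnn1, Tagln and others) were past 2-fold lower in WT/ApoE-/-, where 17.9% of genes were, with a summed level of 10504 against 32270 CPM. In LysM-DKO/ApoE-/- their sum was 3608 against 44007 CPM and their median log2 ratio -3.65, in a library where 3011 of 15086 genes were past 2-fold lower. Of 10 genes listed for modulated cells, 4 were higher and 2 lower in WT/ApoE-/- and all 10 were higher in LysM-DKO/ApoE-/-. Spp1, osteopontin, was at 12731 against 4355 CPM and at 9892 against 202 CPM. All 6 macrophage markers were lower, with sums of 86.4 against 867 CPM and 4.03 against 156 CPM, and 0 and 3 of them were at 0.

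Markers of bone cells were read in some of the same barcodes. The 4 osteoblast markers (Bglap, Bglap2, Dmp1 and Sp7) summed to 57.3 against 2.76 CPM and to 87.4 against 0.837 CPM. The 54 Dmp1 UMIs of WT/ApoE-/- lay in 3 of the 335 barcodes. Bglap and Bglap2 were seen in 2 and 3 of the 42 barcodes of LysM-DKO/ApoE-/-, where Dmp1 was at 0. Sp7, the osteoblast factor downstream of Runx2, was seen in 13.7% and 21.4% of Col2a1-rich barcodes. Col10a1, the collagen of hypertrophic cartilage, was at 356 against 18.3 CPM and at 1674 against 1.59 CPM, but in LysM-DKO/ApoE-/- a single barcode held 989 of its 1245 UMIs. Of other genes of hypertrophic cartilage, Mmp13 was at 22.8 against 44.6 CPM and at 0 against 0.837 CPM, and Ihh at 5.40 against 1.82 CPM and at 1.34 against 5.02 CPM. A single barcode there likewise held 38 of 65 Alpl UMIs. Of the cartilage matrix genes listed, 16 of 23 measured and 14 of 19 were past 2-fold higher, and of the osteogenic genes 12 of 18 and 9 of 16, where 7.67% and 13.7% of all genes were. Lower were 2 and 2 matrix genes and 2 and 3 osteogenic genes.

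Col2a1-rich barcodes were not uniform. In WT/ApoE-/- those of the smooth muscle class kept Myh11 at 2597 CPM and Acta2 at 8358 CPM, against 88.4 and 437 CPM in those of the modulated class. Myh11 is a gene of the smooth muscle rule, which modulated barcodes had failed, so its difference was set by the classes. Acta2 is not in that rule but was read in classes that the rule split. In LysM-DKO/ApoE-/- Ibsp was at 8125 CPM in the 13 of the modulated class, 2323 CPM in the 15 of the smooth muscle class and 22.5 CPM in the 11 of the fibroblast class. Mgp ran the other way there, at 2429 CPM in the modulated and 25833 CPM in the fibroblast class. In WT/ApoE-/- Mgp was at 10342, 10024 and 7120 CPM in the modulated, smooth muscle and fibroblast classes. Per barcode the median Ibsp count was 15 UMIs in WT/ApoE-/- and 1 in LysM-DKO/ApoE-/-, with maxima of 1567 and 602.

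The LysM-DKO normal diet library held 2 Col2a1-rich barcodes, with 15 and 25 Col2a1 UMIs. Together they had 90 Comp, 102 Chad, 353 Cytl1 and 1679 Mgp UMIs, each with at least 23 of Comp and 47 of Chad, and no Ibsp or Alpl UMI.

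**Figure D4:**
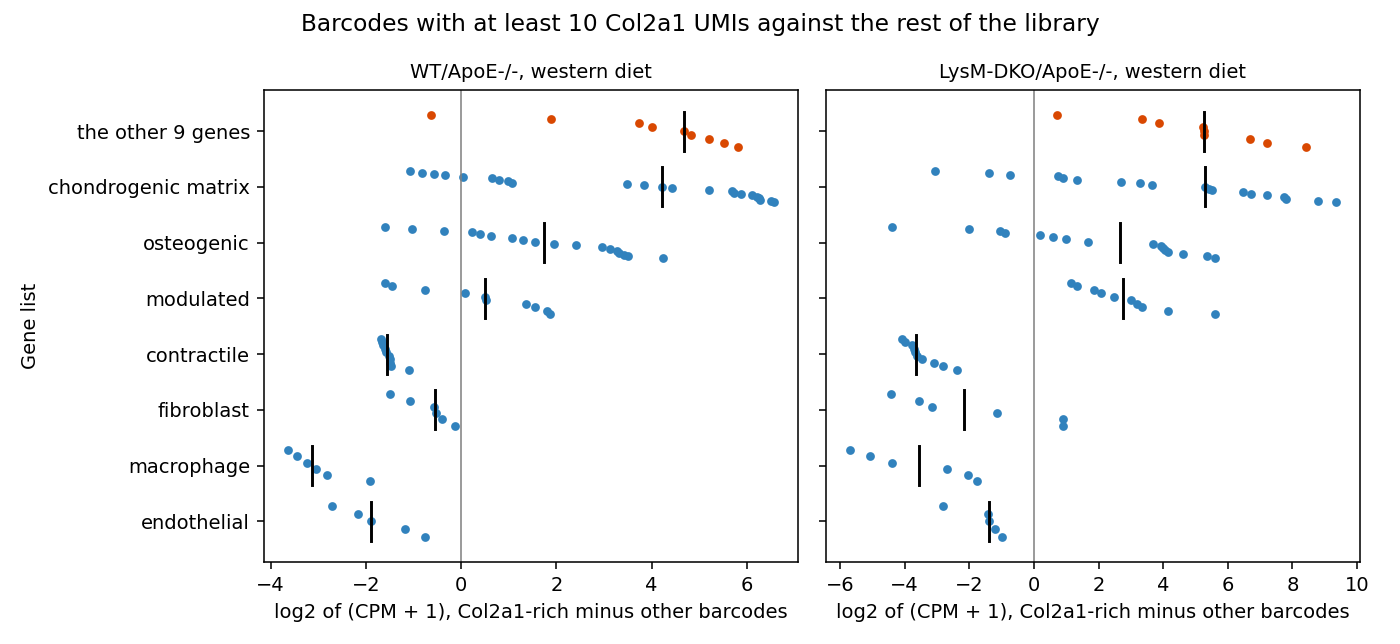
Each point is a gene: the difference of log2(CPM + 1) between Col2a1-rich barcodes and the rest of the same western diet library, by gene list, with a black line at the list's median. The other 9 genes and the cartilage matrix list lie mostly right of 0 in both libraries and the 10 contractile genes lie left of it; 335 and 42 barcodes stand behind the 2 panels.

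Without the Col2a1-rich barcodes the western diet genotype ratio of Col2a1 was -3.28 in place of -1.72, and that of Alpl -1.15 in place of -2.10. The cut is made on Col2a1 itself, so the Col2a1 ratios without these barcodes are no separate result. Cytl1 went from -1.11 to -0.60 and was no longer past 2-fold, which left 7 of the 10 lower, while Ibsp stayed at -3.59. In the WT pair the diet ratio of Col2a1 without them was 6.22, that of Ibsp 7.82, of Chad 6.72, of Acan 1.49 and of Alpl 1.08, and 7 genes were past 2-fold higher, as Sox9 (0.44) and Cytl1 (0.66) no longer were. In the LysM-DKO pair Col2a1 (3.81) and Ibsp (3.84) alone remained past 2-fold higher, and Chad went from 1.29 to -0.53.

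The number of member genes seen per barcode was also counted, leaving out Mgp and with no limit on Col2a1. No member was seen in 74.0%, 71.8%, 52.0% and 63.6% of kept barcodes. All 9 were seen in 21 barcodes of WT/ApoE-/- and 3 of LysM-DKO/ApoE-/-, 8 were seen in 49 and 8, and 7 in 98 and 9. The highest number in the normal diet libraries was 6, in 2 barcodes of the LysM-DKO library.

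The wider pathway was read from lists of other genes. On western diet, LysM-DKO/ApoE-/- was past 2-fold lower for 15 of 23 measured cartilage matrix genes and higher for none (median -1.46), where 11.6% of all genes were lower and 2.36% higher. Among them were Cnmd (-6.69, from 4 against 435 UMIs), the cartilage inhibitor of vessel growth, the vitamin K-dependent Ucma (-4.84), Snorc (-3.37) and the type IX collagen chain Col9a3 (-2.99). Of 19 osteogenic genes 6 were lower and none higher, with Dmp1 and Mepe, both of bone mineral matrix, at -4.82, Spp1 at -3.85 and Sp7 at -2.50. Of 17 genes of mineral inhibition and phosphate handling 5 were lower, among them the BMP antagonist Grem1 (-2.81), Tnfsf11 (-2.74), its decoy receptor gene Tnfrsf11b (-2.25) and the ectonucleotidase Nt5e (-2.09). Of 15 regulators of cartilage Ihh (1.32) and Bmpr1b (1.21) were higher and Pth1r (-1.10) lower. Of 10 modulated-cell genes 9 were lower, and of 10 contractile genes Des (1.42) was higher and none lower.

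On normal diet 6.13% of all genes were past 2-fold higher in LysM-DKO and 1.07% lower. Of 19 cartilage matrix genes Col11a1 (1.997) and Prg4 (1.63) were past 2-fold higher and Epyc (-1.04) lower. None of 18 osteogenic genes was past 2-fold, and of 17 mineral genes the BMP-binding Bmper was (1.93). Of 16 regulators Gdf10 was higher (1.10) and Barx1 lower (-1.55). Of 10 modulated-cell genes Ly6c1 (1.45), Ly6a (1.24) and Lgals3 (1.18) were higher.

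With western diet and ApoE-/- in the WT pair, 16 of 23 cartilage matrix genes were past 2-fold higher and 2 lower, where 6.18% of all genes were higher and 11.8% lower. Those furthest up were Col9a1 (7.48), Scrg1 (7.09), Col11a1 (6.71) and Col9a2 (6.43), and those down were Epyc (-2.19) and Cilp (-1.04). Of 19 osteogenic genes 9 were higher and none lower, with Spp1 at 6.30, Mepe at 6.21, Sp7 at 2.99 and Dmp1 at 2.27. Of 17 mineral genes 4 were higher, Grem1 (4.97), Tnfrsf11b (3.04), Bmper (1.25) and Ank (1.12). In the LysM-DKO pair 8 of 22 cartilage matrix genes were higher, among them Col10a1 (5.58), Col9a1 (4.85), Scrg1 (3.87) and Col9a2 (3.19), and 3 were lower, Cnmd (-3.49), Epyc (-2.60) and Cilp (-2.50). In that pair 3.94% of all genes were higher and 22.4% lower, so the lower calls of these lists were no more frequent than over all genes. Of 17 osteogenic genes Spp1 (2.61) and Dlx5 (1.15) were higher and Dlx3 (-1.71) and Atf4 (-1.13) lower. Of 17 mineral genes Grem1 (1.49) was higher and Bmper (-2.65), Nt5e (-2.11) and Tnfsf11 (-2.05) lower. Of 16 regulators Barx1 (2.31) and Bmpr1b (1.24) were higher and Bmp5 (-4.54) lower, and in the WT pair Pth1r (1.76) and Gdf10 (1.24) were higher and Bmp5 (-3.01) lower.

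The genes whose level ran most like each member were sought over the 24 sums of class and library (log2 of CPM + 10, 14437 genes). These points share libraries and free RNA, so the correlations are descriptions with no p. Col2a1 ran most like Rarres1 (r = 0.95), Acan (0.93) and Ecrg4 (0.92). Acan ran most like Hapln1 (0.96), which links aggrecan to hyaluronan, then Col11a2 and Sdk2 (both 0.95). Comp ran most like Sertad4 (0.96), Col1a1 (0.95) and Col6a3 (0.94), and Ibsp most like Cemip (0.93), Grin2a (0.92) and Hapln1 (0.91). Alpl ran most like Pth1r (0.94), Chad most like Cilp2 (0.93), Sox9 most like Pcolce2 (0.92), Cytl1 most like Jam2 (0.92) and Mgp most like Timp3 (0.96). Runx2 had the lowest leading value, 0.81 for Trim35.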

How the data were processed

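The authors deposited, per the file headers, matrices of whole-number UMI counts per gene and barcode made with Cell Ranger, version 6.0.1 for normal diet and 6.1.2 for western diet. The submitters' processing notes list Cell Ranger 6.1.2, Seurat 4.1.0 and mm10. Cell calling, annotation and strand settings are not given in the sources used here. Kept barcodes summed to 40746006, 37789023, 53423800 and 56888546 UMIs, so that a count of 0 over a library allows 0.0527 to 0.0794 CPM.

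Counts were summed by class and library with pandas 2.3.3 and numpy 2.4.6 under Python 3.11.15, and scipy 1.17.1 gave the intervals. Ratios had 0.5 UMIs added to each sum. Intervals were exact: Poisson for levels, Clopper-Pearson for shares, and binomial given the total for ratios. Thinning drew 1000 UMIs per barcode. No doublets were removed for the values reported. As an alternative, scrublet as run by scanpy 1.11.5 removed 481, 542, 1511 and 529 barcodes, at 0.8% per 1000 barcodes. Gene locations were joined by gene ID to GENCODE M21 (99.8% of features matched). The scripts were tested on simulated data.

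The member genes and the other gene lists were chosen with earlier results of these data known. All members are named. From each other list up to 4 genes per direction and comparison are named, those with the largest ratios. The limit of 10 Col2a1 UMIs and every value that uses it, and the splits by Cytl1 and by lymphocyte markers, were added after the data were seen. Other alternatives were minimums of 500 and 2000 UMIs, 20% mitochondrial UMIs, median-ratio scaling, equal weight for each barcode, at least 2 UMIs of each gene, and no low-count filter.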

Additional observations from a re-analysis of the deposited data

Results flagged for a closer look

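For 7 of the 10 genes the LysM-DKO over WT ratio had opposite signs on the 2 diets and counting intervals that left out 0 on both. The log2 ratios on normal diet and with ApoE-/- on western diet were 0.74 and -1.72 for Col2a1, 1.23 and -0.52 for Comp, and 0.44 and -1.11 for Cytl1. They were 4.78 and -2.51 for Chad, 0.90 and -1.30 for Runx2, 0.47 and -2.10 for Alpl, and 0.40 and -0.75 for Mgp. Ibsp also had opposite signs (0.39 [-0.23 to 1.03] and -3.59), with an interval that spanned 0 on normal diet. With 1 library per group the difference between diets was not tested. The share of all genes that meet the same rule was not computed, so the count of 7 is not read as particular to these genes. On normal diet the Col2a1 ratio rests on 59 and 38 UMIs and the Chad ratio on 165 and 6. Of the 59, 40 lay in 2 barcodes with at least 10 Col2a1 UMIs, and the WT normal diet library had 0 such barcodes. Without such barcodes the Col2a1 ratios were -0.87 and -3.28, both below 0. The cut is made on Col2a1 itself, so the first ratio had to fall and the change of sign is no separate result.

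Signal was also found in barcodes outside the filters. Among WT/ApoE-/- barcodes with at least 500 but under 1000 UMIs, 2.88% (358 of 12412) held at least 2 of Sox9, Col2a1 and Acan, and 81 held at least 10 Col2a1 UMIs. The share was 0 of 1281 and 0 of 1406 in the normal diet libraries, which allows up to 0.288% and 0.262% by the exact interval, and 0.222% (2 of 902) in LysM-DKO/ApoE-/-. Among barcodes over 10% mitochondrial UMIs the WT/ApoE-/- share was 3.1% (56 of 1804), against 0.443%, 0.0752% and 0.397% in the other libraries.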

How the results depend on the processing

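No paired analysis was possible because each group had 1 library. The share of barcodes with at least 2 of Sox9, Col2a1 and Acan moved most with depth and with the rule for detection. In the order of the groups it was 0.0516%, 0.0243%, 3.82% and 0.516% after thinning, 0.168%, 0.0851%, 3.37% and 0.885% with at least 2 UMIs of each gene, and 0%, 0.0243%, 2.44% and 0.516% counted as at least 10 Col2a1 UMIs. For WT/ApoE-/- it was 5.46% at 500 UMIs, 9.99% at 2000 and 8.31% without doublets, and for LysM-DKO on normal diet 0.805% at 2000 UMIs and 0.437% at up to 20% mitochondrial UMIs. All 3 genes were seen in 1.62% of WT/ApoE-/- barcodes at 500 UMIs, 3.97% at 2000, 3.03% without doublets, 0.982% after thinning and 1.34% with at least 2 UMIs of each, and in 0.197% of LysM-DKO/ApoE-/- barcodes after thinning. The WT/ApoE-/- library was the highest under each of these settings.

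The number of genes past 2-fold moved by over 1.5 times in 2 settings: 1 in place of 2 higher on normal diet with equal weight for each barcode (Comp 0.93), and 2 in place of 5 higher in the LysM-DKO diet comparison without Col2a1-rich barcodes. There Chad reversed to -0.53. The modulated class of LysM-DKO on normal diet was the highest for 2 genes in place of 4 when classes were called after thinning, and for 2 without Col2a1-rich barcodes, an alternative added after seeing the data. Median-ratio scaling shifts every ratio by the median of all genes, -0.10 in the LysM-DKO diet comparison and under 0.1 in size in the others. Depth limits Col2a1, Ibsp and Chad on normal diet, with 6 to 165 UMIs per library.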

Other observations

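Within the Pecam1/Cdh5 class, Cytl1 lay in the barcodes with the most endothelial RNA. Those with at least 10 Cytl1 UMIs, 80, 99, 26 and 62 barcodes, held Pecam1 at 2244, 2404, 1165 and 1643 CPM, against 390, 484, 341 and 366 CPM in those without Cytl1. Vwf, the von Willebrand factor gene of endothelium, was at 280, 296, 134 and 84.1 CPM against 7.28, 16.4, 8.30 and 1.997 CPM. Myh11 ran the other way, at 467, 614, 345 and 596 CPM against 4151, 2977, 2583 and 4598 CPM.

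In the other class, barcodes with T cell markers held 54 of 79, 45 of 77, 28 of 55 and 0 of 8 Runx2 UMIs. It was at 41.9, 59.3 and 38.9 CPM there in the first 3 libraries, seen in 12.5%, 13.6% and 8.12% of 319, 206 and 308 barcodes. In barcodes with B cell markers it was at 3.88, 2.89 and 2.04 CPM. LysM-DKO/ApoE-/- had 20 barcodes with T cell markers and no Runx2 UMI in them, which allows up to 16.8% of barcodes by the exact interval. Barcodes with Schwann cell markers held 0, 6, 1 and 2 Runx2 UMIs, and those with erythroid markers 0, 0, 1 and 0. Barcodes with none of these markers held 20, 21, 23 and 6 Runx2 UMIs, at 18.1, 24.1, 21.4 and 26.9 CPM.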
